A study of Mus musculus with 16 samples.

Results

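The genes described here encode the subunits of the mitochondrial respiratory chain and ATP synthase in the calvaria, or skull roof, of 7-day-old mice. They were chosen by symbol, as all genes on the array whose names start with Ndufa, Ndufb, Ndufc, Ndufs, Ndufv, Sdha to Sdhd, Uqcr, Cox4i, Cox5, Cox6, Cox7, Cox8 or Atp5, and each was represented by its probe with the highest mean. The rule took 89 of the 16593 named genes, through 111 probes. They comprised 34 subunits of complex I, 3 of complex II, 8 of complex III, 18 of complex IV and 16 of ATP synthase. The prefixes also took in 9 assembly factors of complexes I and II and 1 pseudogene symbol, Ndufs5-ps.

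The mice were male and fell into 4 genotypes. A-KO mice were Axin2-/-, R-Het mice were Runx2+/-, A-KO:R-Het mice were Axin2-/-:Runx2+/-, and WT mice carried normal alleles of both genes. Axin2 damps Wnt signalling by helping to destroy beta-catenin, and Runx2 is needed for osteoblasts to form. No Cre line or transgene is named in the labels, and whole calvarial RNA was profiled, so every cell type left on the bone contributed to the signal. Each genotype had 4 mice, 1 array a mouse, but 1 array, A-KO replicate 2, is marked in its label as damaged and left out, which gave 3 A-KO, 4 R-Het, 4 A-KO:R-Het and 4 WT arrays on 2 chips.

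Complexes I to IV pass electrons from NADH and succinate to oxygen. Of these, complexes I, III and IV pump protons across the inner mitochondrial membrane, and ATP synthase uses that gradient to make ATP. Complex I oxidises NADH, complex II oxidises succinate, complex III reduces cytochrome c, and complex IV, cytochrome c oxidase, hands the electrons to oxygen. Most subunits are encoded in the nucleus and made in nearly all cells, but several complex IV subunits exist as pairs of isoforms, of which Cox6a2, Cox7a1 and Cox8b are the forms of heart and skeletal muscle and Cox6a1, Cox7a2 and Cox8a the forms found widely.

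Intensities are the deposited normalized values on a log2 scale, and their median lay between 92.9 and 95.5 on a linear scale over the 15 arrays. Of the osteoblast markers, 7 of 7 on the array passed the filter on low values, with a mean log2 intensity between 12.62 and 12.89 in A-KO, 12.67 and 12.76 in R-Het, 12.58 and 12.69 in A-KO:R-Het and 12.43 and 12.95 in WT arrays. Skeletal muscle markers were also measured, and 21 of 24 on the array passed. Their mean log2 intensity ran from 8.07 to 9.92 in A-KO, from 7.34 to 11.12 in R-Het, from 7.28 to 9.97 in A-KO:R-Het and from 8.66 to 10.96 in WT arrays. Myh4, Myh7 and Myod1 did not pass. Of the 9 brown adipocyte markers on the array, 4 passed (Cidea, Cpt1b, Pparg and Adipoq), and Ucp1, Elovl3, Dio2, Fabp4 and Plin1 did not. The mean log2 intensity of the 4 ran from 6.92 to 6.99 in A-KO and from 6.87 to 7.55 in R-Het. It ran from 6.76 to 7.08 in A-KO:R-Het and from 6.99 to 7.43 in WT arrays. Ucp1, which defines brown fat, had a log2 intensity of at most 6.40 on the 15 arrays. The part of brown fat in the chain's values was not tested.

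The amount of muscle RNA was summarised for each array by the muscle index, the mean log2 intensity of Acta1, skeletal muscle actin, and Ckm, muscle creatine kinase. The index was 11.80, 10.34 and 9.31 on the A-KO arrays, 8.14, 10.56, 8.46 and 13.04 on the R-Het arrays, 10.91, 10.40, 11.71 and 7.94 on the A-KO:R-Het arrays, and 12.29, 10.44, 13.07 and 10.10 on the WT arrays. The ranges of all genotypes overlapped. The index averaged 10.48 ± 1.25 in A-KO (SD, n = 3), 10.05 ± 2.27 in R-Het, 10.24 ± 1.63 in A-KO:R-Het and 11.48 ± 1.43 in WT (SD, n = 4 each). The mean differed from that of WT by -0.99 in A-KO, -1.43 in R-Het and -1.24 in A-KO:R-Het. Each difference stayed below 0 with any single array left out. None was called: two-sided exact permutation tests gave p = 0.371 for A-KO, 0.371 for R-Het and 0.314 for A-KO:R-Het. The adjusted p was 0.619 for each over 5 comparisons, where the smallest p possible was 0.0286. With 3 or 4 arrays a genotype, these tests cannot show that the index was equal. In these bulk samples, fewer cells of a type and less RNA per cell cannot be told apart.

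Of the 89 genes, 83 passed the filter, which asked for a probe value over the array median on 3 or more of the 15 arrays. All 83 lay over that median on all 15 arrays. The other 6 were Atp5k, Cox7b2, Cox8c, Ndufs1, Uqcrfs1 and Uqcrq. Ndufs1, a core iron-sulfur subunit of complex I, averaged a log2 intensity of 5.81 ± 0.07 in A-KO, 5.88 ± 0.06 in R-Het, 5.94 ± 0.12 in A-KO:R-Het and 5.86 ± 0.12 in WT arrays. Uqcrfs1, the Rieske iron-sulfur protein of complex III, averaged 6.27 ± 0.08 in A-KO, 6.15 ± 0.10 in R-Het, 6.39 ± 0.14 in A-KO:R-Het and 6.22 ± 0.12 in WT arrays. These are low probe readings, and since probes differ in efficiency no level was set against that of another gene. Sdha and Ndufa4l2 were not analysed here.

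The 3 muscle isoforms of complex IV varied far more among mice than the other genes of the chain. Cox6a2 had log2 intensities of 10.55, 9.14 and 7.84 in A-KO, 7.20, 8.79, 7.38 and 11.91 in R-Het, 9.64, 9.24, 10.51 and 6.96 in A-KO:R-Het, and 11.04, 9.19, 11.90 and 8.73 in WT calvaria. R-Het replicate 4 and WT replicate 3 were the highest, A-KO:R-Het replicate 4 was the lowest, and the genotypes overlapped. Cox8b had log2 intensities of 9.37, 8.30 and 7.28 in A-KO, 6.88, 8.16, 7.13 and 11.00 in R-Het, 8.92, 8.06, 9.63 and 6.77 in A-KO:R-Het, and 10.02, 8.48, 10.74 and 8.07 in WT calvaria. The same arrays stood at the ends. Cox7a1 had log2 intensities of 8.67, 7.83 and 7.36 in A-KO, 6.95, 7.63, 7.07 and 10.13 in R-Het, 7.85, 7.88, 8.78 and 6.93 in A-KO:R-Het, and 9.16, 8.18, 10.35 and 7.85 in WT calvaria. WT replicate 3 and R-Het replicate 4 were again the highest and A-KO:R-Het replicate 4 the lowest.

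Their partner isoforms moved little. Cox6a1 averaged a log2 intensity of 12.38 ± 0.21 in A-KO, 12.13 ± 0.20 in R-Het, 12.24 ± 0.12 in A-KO:R-Het and 12.08 ± 0.13 in WT calvaria. Cox7a2 averaged 9.03 ± 0.07 in A-KO, 9.03 ± 0.31 in R-Het, 9.00 ± 0.17 in A-KO:R-Het and 9.09 ± 0.15 in WT calvaria. Cox8a averaged 12.61 ± 0.16 in A-KO, 12.49 ± 0.12 in R-Het, 12.51 ± 0.13 in A-KO:R-Het and 12.53 ± 0.08 in WT calvaria. All of these ranges overlapped between genotypes except that of Cox6a1, where the 3 A-KO arrays (12.23 to 12.62) lay above the 4 WT arrays (11.91 to 12.20).

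**Figure D1:**
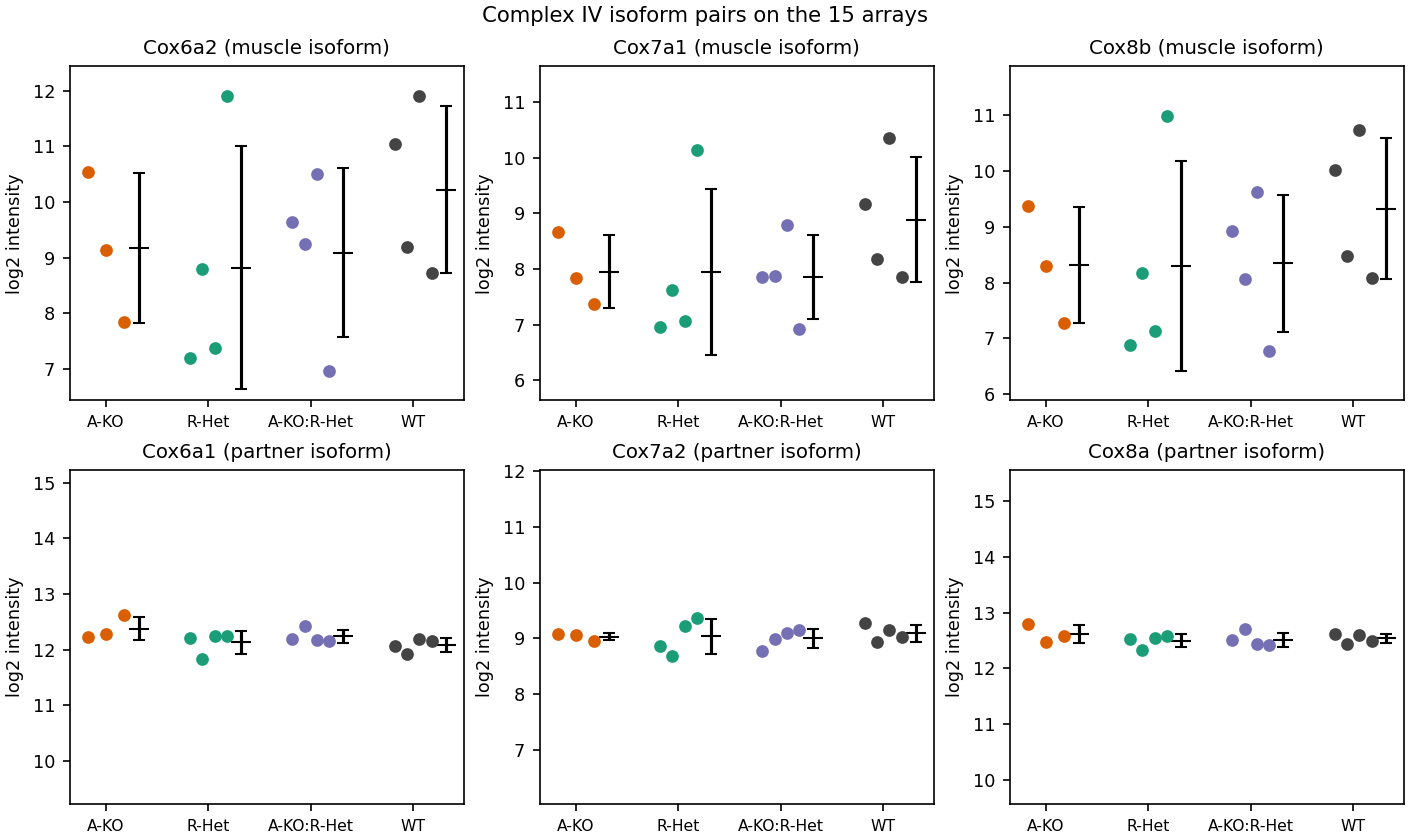
Log2 intensity of the 3 muscle isoforms of complex IV (top row) and their partner isoforms (bottom row), 1 point an array, by genotype, with the mean ± SD of each genotype (n = 3 A-KO, 4 each of the others). Both panels of a pair span the same number of log2 units. Cox6a2, Cox7a1 and Cox8b spread over several log2 units within genotypes, while Cox6a1, Cox7a2 and Cox8a stay in a narrow band.

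The sequences just before the transcription starts of these isoforms are shown because the muscle forms varied together on these arrays and their partners over a much narrower range. Each is the 250 bases before the RefSeq start on assembly GRCm38.p6, printed 5′ to 3′ on the strand of the gene. Capitals mark matches, on either strand, to the 3 motifs searched: GCGC and TGCGC with 1 base of any kind between them, the site of NRF1, a transcription factor known for controlling nuclear genes of the respiratory chain; CCGGAAG, a core bound by ETS factors; and CAGCTG, an E-box of the kind MyoD binds. Cox6a2 is not shown. The windows are those of Cox7a1 (chr7:30183921-30184170, plus strand), Cox8b (chr7:140900447-140900696, minus strand), Cox6a1 (chr5:115348959-115349208, minus strand), Cox7a2 (chr9:79759854-79760103, minus strand) and Cox8a (chr19:7217617-7217866, minus strand).
Cox7a1: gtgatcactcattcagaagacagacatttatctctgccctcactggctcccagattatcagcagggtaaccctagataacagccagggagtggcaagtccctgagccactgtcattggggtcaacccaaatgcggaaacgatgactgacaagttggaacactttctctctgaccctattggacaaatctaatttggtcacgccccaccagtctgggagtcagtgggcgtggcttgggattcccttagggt
Cox8b: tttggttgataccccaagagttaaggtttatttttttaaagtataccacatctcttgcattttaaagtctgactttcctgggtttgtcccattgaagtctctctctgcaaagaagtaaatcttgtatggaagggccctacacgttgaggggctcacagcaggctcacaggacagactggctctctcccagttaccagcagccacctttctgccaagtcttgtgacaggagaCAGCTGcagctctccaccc
Cox6a1: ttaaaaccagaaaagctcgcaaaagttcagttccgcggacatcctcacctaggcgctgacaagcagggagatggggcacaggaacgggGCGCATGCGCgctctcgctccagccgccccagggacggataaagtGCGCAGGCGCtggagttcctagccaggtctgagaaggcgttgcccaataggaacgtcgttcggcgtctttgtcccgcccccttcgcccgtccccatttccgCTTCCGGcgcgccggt
Cox7a2: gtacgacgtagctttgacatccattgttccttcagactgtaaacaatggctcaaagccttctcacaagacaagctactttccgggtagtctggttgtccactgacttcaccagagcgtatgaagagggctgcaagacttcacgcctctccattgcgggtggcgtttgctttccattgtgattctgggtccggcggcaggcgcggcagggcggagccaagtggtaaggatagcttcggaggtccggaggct
Cox8a: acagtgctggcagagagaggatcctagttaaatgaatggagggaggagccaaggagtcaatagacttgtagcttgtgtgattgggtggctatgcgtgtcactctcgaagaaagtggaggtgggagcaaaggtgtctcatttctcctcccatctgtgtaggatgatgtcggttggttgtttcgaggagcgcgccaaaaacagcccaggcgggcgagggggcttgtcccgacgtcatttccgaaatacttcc

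The Cox6a1 window held 2 matches to the NRF1 motif and 1 to the ETS core, the Cox8b window held 1 E-box match, and the windows of Cox7a1, Cox7a2 and Cox8a held none of the 3. The windows of the muscle forms Cox7a1 and Cox8b held 4 and 1 CpG dinucleotides, and those of Cox6a1, Cox7a2 and Cox8a held 26, 14 and 11. RefSeq windows were found for 74 of the 89 genes. Their median GC content was 57%, against 52% over the 27025 genes of the table, and their median CpG count was 14, against 6. The NRF1 motif was present in 13.5% of the 74 windows and in 3.86% of all genes' windows, the ETS core in 18.9% and 7.05%, and the E-box in 6.76% and 12.8%. The motifs do not overlap one another in the printed windows. These are counts of letters and say nothing of binding.

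The slope on the muscle index, the change in log2 intensity per log2 unit of the index within genotypes, was tested for every gene with limma. In calvarial RNA, Cox6a2, Cox8b and Cox7a1 rose with the amount of muscle RNA. The slope was 0.97 ± 0.03 for Cox6a2 (SE, adjusted p = 7.52e-12), 0.81 ± 0.04 for Cox8b (adjusted p = 6.15e-10) and 0.60 ± 0.05 for Cox7a1 (adjusted p = 1.53e-06), by limma with Benjamini-Hochberg adjustment over 9916 genes. They were 3 of the 83 genes called higher with the index, against 1.82% of all genes tested. None of the 83 was called lower, against 0.0504% of all genes.

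The call for these isoforms was lost in 1 of the alternative fits run. On chip 1 alone, with 7 arrays, the slopes were 0.78 for Cox6a2, 0.67 for Cox8b and 0.36 for Cox7a1, with limma adjusted p of 0.0581, 0.219 and 0.943. On chip 2 alone they were 0.99, 0.83 and 0.64, all called. Without the 3 arrays highest in the index, they were 0.90, 0.71 and 0.42, also all called.

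The slopes of the partner isoforms lay near 0. The slope was -0.01 ± 0.03 for Cox6a1, 0.03 ± 0.03 for Cox7a2 and 0.02 ± 0.02 for Cox8a, with limma adjusted p of 0.986, 0.946 and 0.946. The log2 ratio of each muscle form to its partner, read after the slopes had been seen and so given with no test, rose by 0.98 per unit of the index for Cox6a2 over Cox6a1, by 0.79 for Cox8b over Cox8a and by 0.56 for Cox7a1 over Cox7a2. Within single genotypes the slope of the ratio lay between 0.92 and 1.23 for Cox6a2, between 0.72 and 0.83 for Cox8b and between 0.48 and 0.68 for Cox7a1. A ratio within an array shows unequal change and not that a partner was constant.

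**Figure D2:**
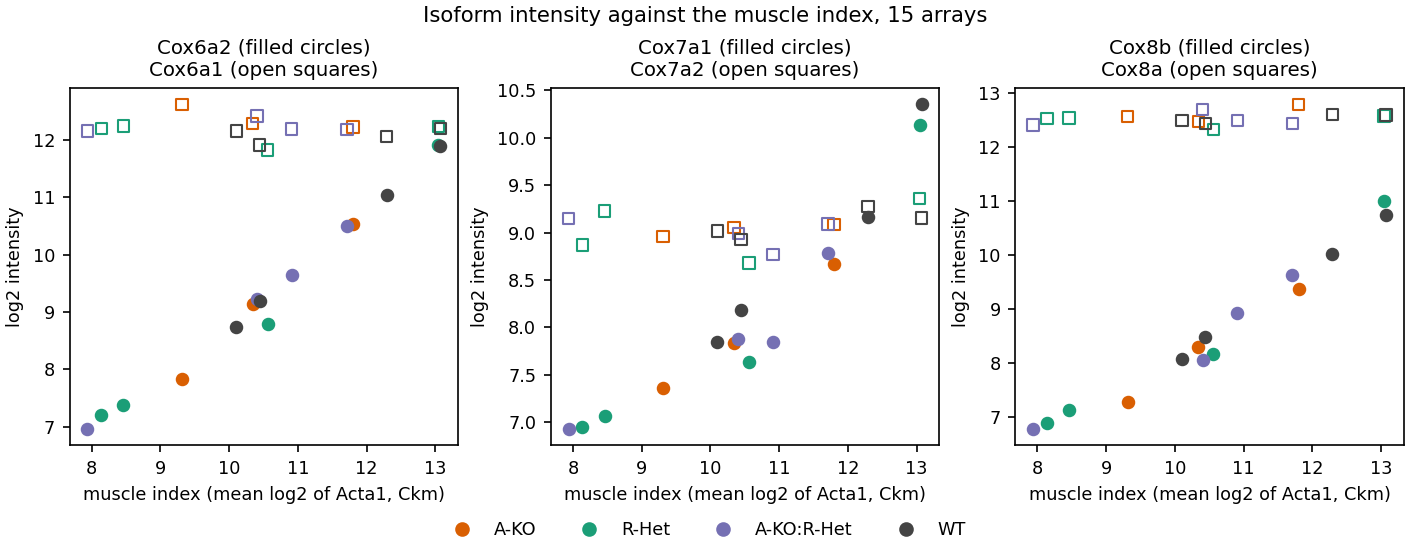
Log2 intensity of each muscle isoform (filled circles) and its partner (open squares) against the muscle index of the array, for 15 arrays coloured by genotype. Within each genotype the muscle forms are higher on arrays with a higher index, except Cox7a1 on A-KO:R-Het replicates 1 and 2. There it is 7.85 and 7.88, at an index of 10.91 and 10.40. The partners run nearly level.

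The slopes of the other genes of the chain were shallow. After the 3 isoforms, the highest slopes were those of Ndufb9, an accessory subunit of complex I, at 0.11 ± 0.04 (limma adjusted p = 0.435), and Cox5a, a structural subunit of complex IV, at 0.09 ± 0.03 (adjusted p = 0.190). The lowest were those of Ndufaf3 and Ndufaf7, assembly factors of complex I, at -0.03 ± 0.02 and -0.01 ± 0.02, of Ndufc2, a complex I subunit, at -0.02 ± 0.03, and of Cox6a1 and Cox6b2, at -0.01 ± 0.03 and 0.00 ± 0.03. Cox6b2 is the testis form of subunit 6b. The probes of Ndufaf3, Ndufaf7 and Cox6b2 read close to the array medians of 92.9 to 95.5. Their linear intensities were 111.5 to 150, 111 to 164 and 109 to 165. The part of low signal in their slopes was not tested.

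The slope was above 0 for 74 of the 83 genes, against 43.3% of all genes, with a median of 0.04 against 0.00 over all genes. At an unadjusted p under 0.05, 24 genes were higher and 0 lower, against 4.47% and 3.02% of all genes. By complex, the median slope was 0.05 for the 33 tested subunits of complex I, 0.08 for the 3 of complex II, 0.05 for the 6 of complex III, 0.06 for the 16 of complex IV, 0.04 for the 15 of ATP synthase and 0.00 for the 9 assembly factors. For subunits listed to represent each complex, the slope was 0.08 ± 0.03 for Sdhb, the iron-sulfur subunit of complex II. It was 0.07 ± 0.03 for Cox4i1 and 0.06 ± 0.03 for Uqcrc1, a core protein of complex III. For Atp5b and Atp5a1, the catalytic beta and the alpha subunits of ATP synthase, it was 0.06 ± 0.03 and 0.06 ± 0.04. It was 0.05 ± 0.02 for Ndufv1, the flavoprotein of complex I, and 0.05 ± 0.03 for Cox5b. None passed the adjusted threshold (adjusted p between 0.301 and 0.869, limma).

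This shallow positive slope rested on the arrays richest in muscle RNA. Without WT replicate 1, WT replicate 3 and R-Het replicate 4 the median slope of the 83 genes was 0.00, with 40 above and 43 below 0, and 3 genes higher and 2 lower at an unadjusted p under 0.05, against 2.62% and 1.39% of all genes. Without R-Het replicate 4 alone it was 0.01, with 4 higher and 2 lower, against 3.92% and 3.01% of all genes. It was -0.01 on chip 1 alone and 0.05 on chip 2 alone.

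**Figure D3:**
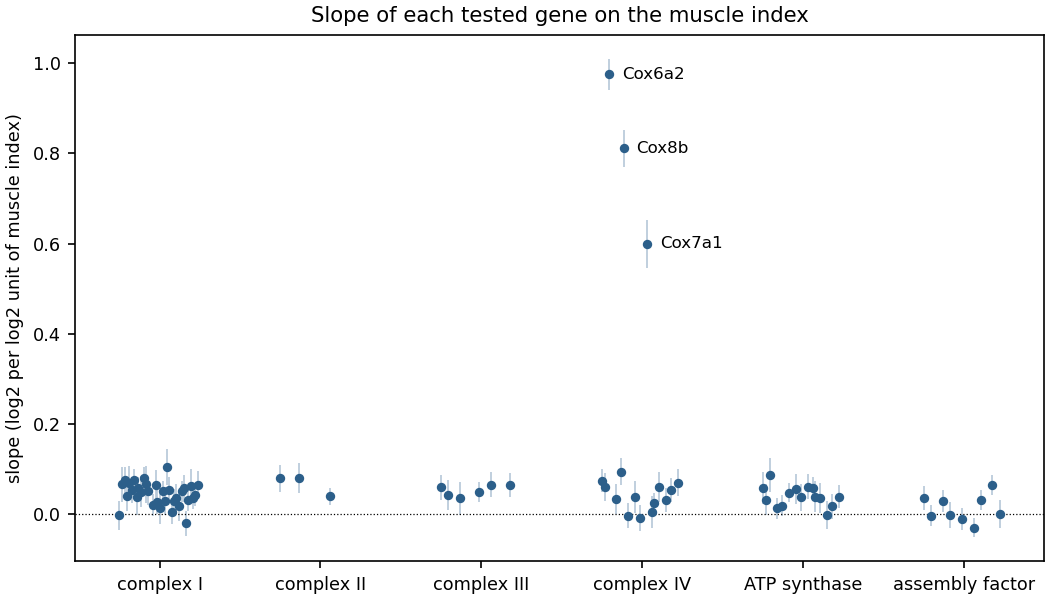
Slope of each tested gene on the muscle index, in log2 units per log2 unit of the index, grouped by complex, with bars of ± 1 SE from limma. The 82 genes with a complex or assembly role are drawn. Cox6a2, Cox8b and Cox7a1 stand at 0.97, 0.81 and 0.60, and every other gene lies between -0.03 and 0.11.

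No gene of the chain was called between genotypes. In 6 comparisons (each mutant genotype against WT, the double mutant against each single mutant, and the interaction), 0 of 83 genes passed an adjusted p of 0.05 by limma over 9918 genes, without the muscle index, and 0 passed with it. The background in the fit without the index was 0.0807% of genes called higher and 0.232% lower for A-KO against WT, 0.0202% and 0.0302% for R-Het against WT, 0.897% and 0.988% for A-KO:R-Het against WT, 0.353% and 0.202% for A-KO:R-Het against A-KO, and 0 for the remaining 2. With the index it was 0.0807% higher and 0.272% lower for A-KO against WT, 0 and 0.0101% for R-Het against WT, 0.645% and 0.918% for A-KO:R-Het against WT, 0.413% and 0.192% for A-KO:R-Het against A-KO, and again 0 for the remaining 2. The interaction compares what Axin2 loss did in Runx2+/- mice with what it did where both Runx2 alleles were intact. All mutants were set against the same WT arrays, so their values stand side by side and are not independent of each other.

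The size of the difference from WT was small for most genes. In A-KO calvaria the median log2 change of the 83 genes was -0.05 without and 0.00 with the muscle index, against 0.01 over all genes in both fits, and 53 genes lay below 0 without it. At an unadjusted p under 0.05, 2 genes were higher and 1 lower, against 7.08% and 5.6% of all genes, and with the index again 2 were higher and 1 lower, against 5.99% and 6.17%. Without the index, those higher were Sdhaf1, an assembly factor of complex II, and Cox6a1, and the lower was Atp5g2, a gene for the membrane ring of ATP synthase. Erythroid markers, of which 4 of 8 listed were on the array, had a mean log2 intensity of 9.04 to 9.63 in A-KO and 10.44 to 10.89 in WT arrays, without overlap. In R-Het it was 10.12 to 10.86 and in A-KO:R-Het 8.92 to 11.01, both overlapping WT. The part of these cells in the chain's values was not tested.

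Sdhaf1 had log2 intensities of 10.09, 9.70 and 9.83 in A-KO, 9.78, 9.68, 9.71 and 9.70 in R-Het, 9.43, 9.70, 9.76 and 9.74 in A-KO:R-Het, and 9.49, 9.47, 9.45 and 9.51 in WT calvaria. The A-KO and the R-Het arrays lay above all WT arrays, while 1 A-KO:R-Het array lay below them. Its log2 change against WT was 0.39 ± 0.10 in A-KO (SE, limma adjusted p = 0.0972), 0.23 ± 0.09 in R-Het (adjusted p = 0.432) and 0.18 ± 0.09 in A-KO:R-Het (adjusted p = 0.427), and the muscle index left these at 0.39, 0.23 and 0.17. Its interaction was -0.45 ± 0.13 (adjusted p = 0.743). Sdhaf1 was among the 3 highest changes in all 3 comparisons against WT.

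Cox6a1 differed from WT by 0.29 ± 0.12 in A-KO (limma adjusted p = 0.335), 0.05 ± 0.11 in R-Het and 0.16 ± 0.11 in A-KO:R-Het. A second probe of Cox6a1 gave 0.11 in A-KO, -0.04 in R-Het and -0.09 in A-KO:R-Het, so the probes differed in sign in R-Het and A-KO:R-Het. Ndufa7, an accessory subunit of complex I, had the next highest change in A-KO, 0.11 ± 0.14.

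In R-Het calvaria most genes of the chain lay below WT. The log2 change was below 0 for 74 of the 83 genes, against 48.7% of all genes, and its median was -0.17, against 0.00 over all genes. With the muscle index the median was -0.10 and 63 genes lay below 0. At an unadjusted p under 0.05, 17 genes were lower and 1 higher, 20.5% and 1.2% of the 83, against 4.62% of all genes in each direction. With the index 6 were lower and 1 higher, against 4.12% and 3.66%. Of the 17, 8 belonged to complex I, 3 to complex III, 3 to ATP synthase, 2 to complex IV, 1 to the assembly factors and 0 to complex II. Markers of osteoclasts, the bone-resorbing cells, were read beside these values. All 7 that passed the filter lay below WT in R-Het, with a median log2 change of -0.32 and 0 called by limma but 4 lower at an unadjusted p under 0.05, and their mean log2 intensity was 9.36 to 9.56 on the R-Het arrays and 9.76 to 9.88 on the WT arrays, without overlap. Of the 8 on the array, Atp6v0d2 did not pass. The part of these cells in the chain's values was not tested. The median change of the chain by complex was -0.14 for complex I, -0.13 for complex II, -0.22 for complex III, -0.22 for complex IV, -0.17 for ATP synthase and -0.08 for the assembly factors.

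Among the genes at the lower end was Cox6b1, the common form of complex IV subunit 6b. It had log2 intensities of 11.70, 11.55, 11.74 and 12.32 in R-Het and 12.14, 12.29, 12.34 and 12.10 in WT calvaria. All R-Het arrays but replicate 4 lay below the WT arrays. The log2 change was -0.39 ± 0.14 (limma adjusted p = 0.393), and a second probe gave -0.35. Ndufa4, a subunit now assigned to complex IV but counted by its name with complex I, had log2 intensities of 11.38, 11.49, 11.81 and 12.11 in R-Het and 12.01, 11.98, 12.09 and 11.97 in WT calvaria, and its log2 change was -0.31 ± 0.13 (adjusted p = 0.460). Here too R-Het replicate 4 was the high array. Atp5g2, named after its values were seen, had log2 intensities of 10.11, 9.57, 9.80 and 9.94 in R-Het and 10.69, 10.29, 10.34 and 10.29 in WT calvaria, without overlap, and the lowest change outside the muscle isoforms, -0.55 ± 0.14 (adjusted p = 0.160). Its change was -0.36 ± 0.15 in A-KO (adjusted p = 0.336) and its interaction 0.62 ± 0.20 (adjusted p = 0.743).

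The subunits listed to represent each complex differed in how far they lay from WT. In R-Het against WT the log2 change was -0.02 ± 0.12 for Cox4i1, -0.01 ± 0.11 for Ndufv1, -0.01 ± 0.12 for Uqcrc1, -0.08 ± 0.11 for Atp5b, -0.16 ± 0.12 for Cox5b, -0.17 ± 0.15 for Atp5a1, -0.25 ± 0.15 for Cox5a and -0.27 ± 0.14 for Sdhb. The isoform Cox4i2, the lung-enriched form of subunit 4, differed by -0.19 ± 0.14, Cox7a2l, a factor that joins complexes III and IV, by -0.22 ± 0.11, Cox6b2 by -0.10 ± 0.11, Cox7a2 by -0.06 ± 0.13 and Cox8a by -0.04 ± 0.09. Adjusted p for these 13 genes lay between 0.555 and 0.995 (limma). The 3 highest changes were those of Sdhaf1, Ndufb2 (0.13 ± 0.15) and Ndufb11 (0.09 ± 0.10), the last 2 of them accessory subunits of complex I. A second probe of Ndufb11, above the array median on 3 arrays, gave -0.04.

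The low median in R-Het was seen on chip 1 and not on chip 2. On chip 1 alone it was -0.33, with 36 of 83 genes lower at an unadjusted p under 0.05, against 5.04% of all genes, and on chip 2 alone it was -0.01, with 1 gene lower, against 2.67%. The same held with the muscle index, at -0.33 on chip 1 and 0.03 on chip 2. R-Het replicates 1 and 2 shared chip 1 with WT replicates 1 and 2. The median deviation of the 83 genes from their mean over arrays was -0.18, -0.29, -0.07 and 0.20 on the R-Het arrays and 0.12, 0.01, 0.19 and -0.03 on the WT arrays. R-Het replicate 2, at a muscle index close to that of WT replicate 2, had the lowest deviation of all, and R-Het replicate 4, with an index of 13.04, the highest, so the genotypes overlapped. Without R-Het replicate 2 the median change was -0.10, with 2 genes lower at an unadjusted p under 0.05, against 3.7% of all genes, and without R-Het replicate 4 it was -0.26, with 42 lower, against 7.74% of all genes.

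**Figure D4:**
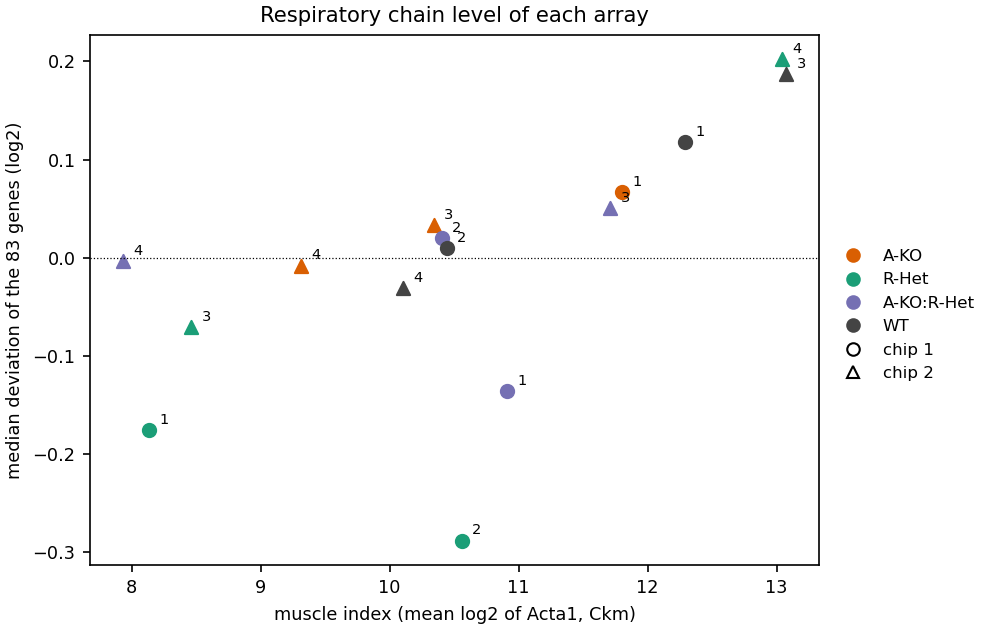
Median deviation of the 83 tested genes on each array from each gene's mean over the 15 arrays, in log2 units, against the muscle index. Colours give the genotype, circles chip 1, triangles chip 2, and the numbers are replicates. R-Het replicates 1 and 2 and A-KO:R-Het replicate 1, all on chip 1, lie lowest, and the 3 arrays with the highest index lie highest.

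In A-KO:R-Het calvaria the median log2 change against WT was -0.09 without and -0.04 with the muscle index, against 0.01 over all genes in both fits, and 65 of 83 genes lay below 0 without it. At an unadjusted p under 0.05, 0 genes were higher and 7 lower, against 7.21% and 6.52% of all genes. With the index 0 were higher and 2 lower, against 6.08% and 6.32%. Without the 3 arrays highest in the index the median was 0.00. Here too all 7 osteoclast markers lay below WT, with a median of -0.35 and a mean log2 intensity of 9.33 to 9.37 on the A-KO:R-Het arrays and 9.76 to 9.88 on the WT arrays. Of these, 3 of 7, Oscar, Dcstamp and Acp5, were called lower by limma, against 0.988% of all genes. The part of osteoclasts in the chain's values was not tested. Cox6b1 differed from WT by -0.31 ± 0.14 (limma adjusted p = 0.340) and Ndufa4 by -0.29 ± 0.13 (adjusted p = 0.322), both close to their values in R-Het by the same probes. The second probe of Cox6b1 gave -0.18, against -0.35 in R-Het. Ndufa9, an accessory subunit of complex I named after its values were seen, had log2 intensities of 10.64, 10.56, 10.77 and 10.74 in A-KO:R-Het, 11.18, 10.98 and 10.88 in A-KO, and 11.17, 11.15, 11.05 and 10.84 in WT calvaria. The A-KO:R-Het arrays lay below all A-KO and WT arrays. Its log2 change was -0.38 ± 0.13 against WT (adjusted p = 0.183) and -0.34 ± 0.14 against A-KO (adjusted p = 0.399), and in R-Het against WT it was -0.34 ± 0.13 (adjusted p = 0.431). The highest changes against WT were those of Sdhaf1, Cox6a1 and Cox6b2 (0.13 ± 0.11).

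The muscle isoforms had the 3 lowest log2 changes in each comparison against WT, with standard errors between 0.64 and 1.08. Cox6a2 differed from WT by -1.04 ± 1.08 in A-KO, -1.39 ± 1.00 in R-Het and -1.13 ± 1.00 in A-KO:R-Het, with limma adjusted p of 0.736, 0.727 and 0.698. Cox8b differed by -1.02 ± 0.91, -1.04 ± 0.84 and -0.98 ± 0.84 in the same order, and Cox7a1 by -0.93 ± 0.70, -0.94 ± 0.64 and -1.03 ± 0.64. With the muscle index in the fit the errors shrank to between 0.15 and 0.24. Cox6a2 then differed by -0.07 ± 0.16 in A-KO, 0.00 ± 0.15 in R-Het and 0.08 ± 0.15 in A-KO:R-Het, Cox8b by -0.21 ± 0.18, 0.12 ± 0.17 and 0.02 ± 0.17, and Cox7a1 by -0.34 ± 0.24, -0.09 ± 0.23 and -0.29 ± 0.22. None was called.

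**Figure D5:**
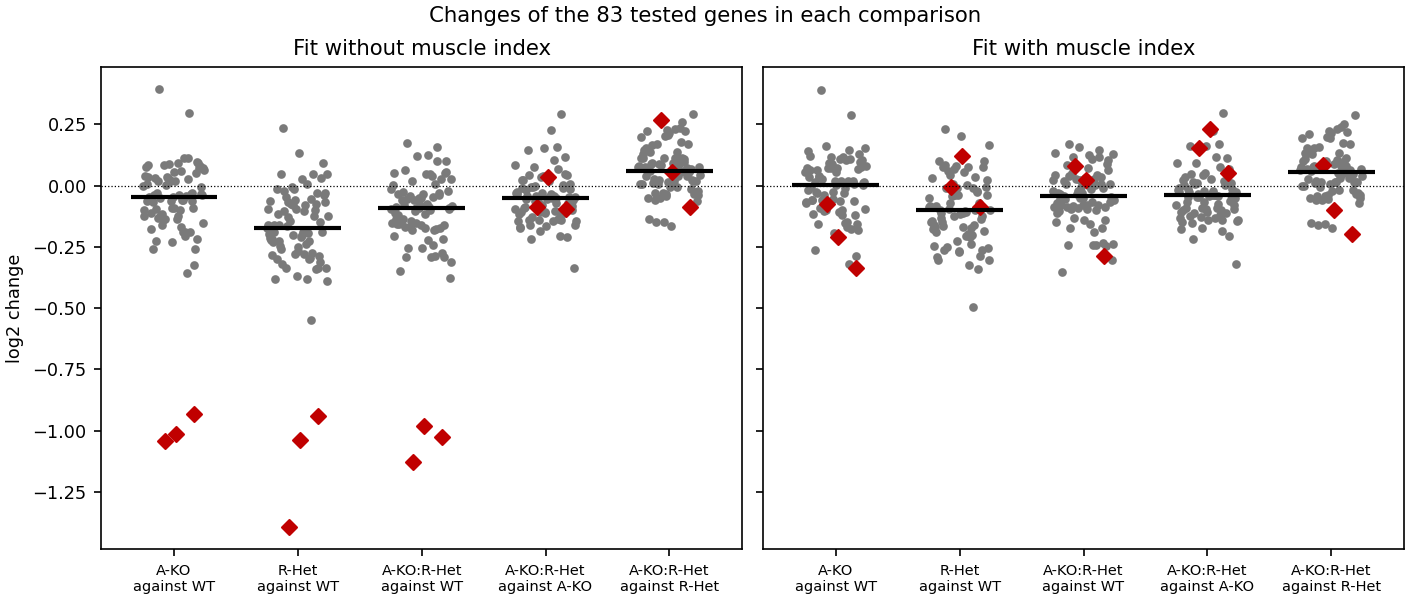
Log2 change of each of the 83 tested genes in 5 comparisons, without (left) and with (right) the muscle index in the fit. Grey points are genes, red diamonds are Cox6a2, Cox8b and Cox7a1, and black lines are medians. Without the index the 3 isoforms lie near -1 in each comparison against WT, and with it they lie among the other genes.

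The mutants were also compared with each other. A-KO:R-Het differed from A-KO by a median log2 change of -0.05 over the 83 genes, with 0 higher and 2 lower at an unadjusted p under 0.05 (5.55% and 5.26% of all genes). With the index 0 were higher and 1 lower (5.73% and 5.13% of all genes). Without it, the 2 were Ndufa9 and Sdhaf1, and Sdhaf1 differed by -0.22 ± 0.10 (limma adjusted p = 0.449). A-KO:R-Het differed from R-Het by a median of 0.06, with 2 genes higher and 0 lower (3.38% and 3.09% of all genes). With the index 1 was higher and 0 lower (3.44% and 3.22% of all genes). Without it, the 2 were Ndufaf7, at 0.24 ± 0.09, and Cox6b2, at 0.23 ± 0.11 (limma adjusted p of 0.749 and 0.758). Both read close to the array medians of 92.9 to 95.5, with linear intensities of 111 to 164 for Ndufaf7 and 109 to 165 for Cox6b2. The other Ndufaf7 probes, above the median on 0 arrays, gave -0.0027 and -0.058, and the second Cox6b2 probe gave 0.22. On chip 1 alone the median of A-KO:R-Het against R-Het was 0.17 and on chip 2 alone -0.04. The interaction had a median of 0.12 without and 0.07 with the muscle index, and only Atp5g2 and Sdhaf1 passed an unadjusted p of 0.05, against 2.72% of genes higher and 3.44% lower. With the index 1 gene was higher and 1 lower, against 3.22% and 2.64% of all genes. On chip 1 alone its median was 0.18 and on chip 2 alone 0.01.

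Other mitochondrial genes were read beside the chain, on the same arrays, so their values are not independent of it. The chain's low R-Het median was seen on chip 1 and not on chip 2, and no chip-wise values are given for these lists. Of 15 enzymes of the TCA cycle, all 15 lay below WT in R-Het, with a median log2 change of -0.14, and 14 of 15 in A-KO:R-Het, with a median of -0.10. Over all genes tested, 48.7% lay below WT in R-Het and 47.3% in A-KO:R-Het. With the muscle index 10 of 15 lay below WT in R-Het and 12 of 15 in A-KO:R-Het, with medians of -0.07 and -0.05. The shares over all genes were then 49.4% and 47.8%. None passed the adjusted threshold by limma in either fit. Without the index, 2 in R-Het and 1 in A-KO:R-Het were lower at an unadjusted p under 0.05, against 4.62% and 6.52% of all genes. The furthest in R-Het were Cs, citrate synthase, at -0.30 ± 0.14, Idh3g at -0.26 ± 0.10 and Suclg1 at -0.25 ± 0.15, and the furthest in A-KO:R-Het was Mdh2, at -0.40 ± 0.11 (limma adjusted p = 0.0885). Of 10 genes for cytochrome c and electron transfer, all 10 lay below WT in R-Het, with a median of -0.12, and 6 of 10 with the index, with a median of -0.05. Of 11 genes of fatty acid oxidation, 10 lay below WT in R-Het, with a median of -0.16, and 9 with the index, with a median of -0.09.

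Mitochondrial ribosomal proteins and regulators of the organelle were read in the same way, and no difference between these lists and the chain was tested. Of 70 mitochondrial ribosomal protein genes, 59 lay above WT in A-KO, with a median log2 change of 0.08. Of the 83 chain genes 30 lay above WT there, and of all genes 51.7%. In R-Het 48 of the 70 lay below WT, with a median of -0.06, against 48.7% of all genes. None of the 70 passed, and 6 were higher and 1 lower in A-KO at an unadjusted p under 0.05, against 7.08% and 5.6% of all genes. Mrps10 came nearest, at 0.45 ± 0.10 in A-KO (limma adjusted p = 0.0579). Of 11 regulators of mitochondrial biogenesis 8 lay below WT in R-Het, with a median of -0.06, and 7 in A-KO:R-Het, with a median of -0.01. None was called in any genotype comparison by limma, and at an unadjusted p under 0.05 between 0 and 3 were lower and between 0 and 1 higher in each. Over the comparisons in both fits, between 2.64% and 6.52% of all genes were lower and between 2.72% and 7.21% higher. The highest count, 3 of the 11 lower, is a larger share than any of these. Counts and shares are ranges over comparisons, so no count is set against the share of its own comparison. Ppargc1b, a coactivator of the chain's genes, differed from WT by -0.40 ± 0.12 in R-Het (adjusted p = 0.232) and -0.43 ± 0.12 in A-KO:R-Het (adjusted p = 0.0753), and Ppargc1a by -0.25 ± 0.11 in A-KO (adjusted p = 0.373). Of 33 listed assembly factors of the chain 0 were called by limma, and between 0 and 3 were higher and between 0 and 2 lower at an unadjusted p under 0.05. The shares of all genes are those given for the regulators, again as ranges and not comparison by comparison. Genes of mitochondrial DNA were not analysed here.

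The slope on the muscle index also set apart muscle forms in other steps of energy metabolism. All 19 other skeletal muscle genes rose with the index, with a median slope of 0.76. Of 11 mitochondrial carriers and related genes 1 was called, Ckmt2, the mitochondrial creatine kinase of muscle, at 0.66 ± 0.06 (limma adjusted p = 1.73e-06). Of 11 fatty acid oxidation genes 1 was called, Cpt1b, the muscle form of carnitine palmitoyltransferase, at 0.42 ± 0.04 (adjusted p = 1.59e-06). Cpt1b is also among the brown adipocyte markers that passed the filter. Of 13 glycolytic genes 4 were called, Aldoa, Eno3, Pfkm and Pgam2, the names of which were chosen after their values were seen. None of 15 TCA cycle genes, 10 of cytochrome c and electron transfer, 70 mitochondrial ribosomal proteins, 11 regulators, 33 assembly factors, 7 osteoblast, 7 osteoclast or 4 erythroid markers was called on the slope by limma. At an unadjusted p under 0.05, 6 of the TCA cycle genes, 1 of cytochrome c and electron transfer, 4 ribosomal proteins, 2 regulators, 1 assembly factor and 1 osteoclast marker were higher, and 1 regulator was lower. Of all genes, 4.47% were higher and 3.02% lower by that measure. By the adjusted threshold 1.82% of all genes were called higher on the slope and 0.0504% lower. The 1 cardiac marker called of 2 tested was Actc1, at 0.77 ± 0.11 (adjusted p = 0.000232), and Nppa, Tnni3 and Myl7, which mark heart, did not pass the filter. Of the carriers, Ckmt1 fell in A-KO:R-Het against WT, by 0.65 on the log2 scale (adjusted p = 0.0421, limma). It lost that call when any of 10 single arrays was left out, and without WT replicate 1 it was -0.47.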

How the data were processed

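Gene expression was measured in whole calvaria with single-colour Illumina bead arrays, 16 arrays from 16 mice, of which 15 were used. The labels' protocols name TRIzol extraction and biotin-labelled cRNA made from 200 ng of RNA. Each value is a probe's linear intensity as deposited, normalized by the authors. The background correction and normalization behind them are not given in the sources used here. A table of scanner signals with 32 columns named by running numbers was not used, since the numbers match no sample label. Groups came from the genotype label, and replicates were numbered in record order and never paired.

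Of 25697 probes, the platform annotation paired 23978 with 1 symbol and 1719 with none, and all 89 genes matched a RefSeq gene by Entrez identifier. Probes above their array's median on at least 3 of 15 arrays were kept, and the probe with the highest mean stood for each gene, which gave 9918 genes. The log2 values of these deposited intensities were modelled by genotype, all 15 arrays together, with limma 3.58.1 in R 4.3.3, with 11 residual degrees of freedom, or 10 with the muscle index. P-values were adjusted by Benjamini-Hochberg over all genes tested, 9916 with the index, since Acta1 and Ckm were left out. Changes are log2 fold changes ± SE, and group values are means ± SD. The number of arrays limits the precision. The fit was checked on simulated data.

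Genes named with values are those past the threshold between genotypes and the 3 highest and 3 lowest changes against WT. The 5 highest and 5 lowest slopes, the complex IV isoform sets and subunits listed to represent each complex are also named. Of other lists, the genes called or else the furthest from 0 are named. The member set, the gene lists and this rule were chosen with earlier results of these data known. Alternatives changed the muscle covariate, the arrays used, the chip term, the normalization, an offset of 50 before log2, the filter and the probe of a gene. The index of other muscle genes, the isoform ratios, the chip-wise fits with the index and the settings for the index itself were added after the data were seen. Runx2 is not analysed here.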

Additional observations from a re-analysis of the deposited data

Results flagged for a closer look

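In groups of 4 arrays, a single array stood apart from the other 3 by Dixon's test in 7 of the 96 groups examined, and chance flags about 1 in 20. R-Het replicate 2 was low for Cox6a1, at a log2 intensity of 11.83, where the other R-Het arrays lay between 12.20 and 12.24, and for Ndufaf3, at 6.84, where the others lay between 7.01 and 7.04. A-KO:R-Het replicate 2 was high for Cox6a1, at 12.42, with the others between 12.16 and 12.20. A-KO:R-Het replicate 4 was high for Atp5a1, at 11.14, with the others between 10.74 and 10.78. R-Het replicate 4, the array richest in muscle RNA within its genotype, was high for Cox5b, at 12.89, with the others between 12.61 and 12.63. WT replicate 2 was high for Ndufaf3, at 7.13, with the others between 6.96 and 6.98, and WT replicate 4 was low for Sdhb, at 9.71, with the others between 10.25 and 10.29.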

How the results depend on the processing

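No gene of the chain was called between genotypes in any setting that used both chips. For the genotype comparisons each chip alone was read for its median and, in R-Het against WT, for counts at an unadjusted p under 0.05. The 3 genes called on the slope were 0 on chip 1 alone, 4 without A-KO:R-Het replicate 1 or R-Het replicate 2, and 3 in the other settings. The gene added was Ndufb9, at 0.12, without A-KO:R-Het replicate 1 and Ndufa8 without R-Het replicate 2. Of 335 alternative medians, 11 moved by more than the pooled SD between arrays of 0.13 or, for the slope, by over 50% of its size. Apart from R-Het against WT without the index, every main genotype median lay within 0.13 of 0. Such a median could reach 0 or change sign and not count as moved, so this count does not show that the medians were stable. For R-Het against WT the median was -0.33 on chip 1 alone and -0.014 on chip 2 alone, and with the muscle index -0.33 and 0.034. For A-KO:R-Het against R-Het with the index it was 0.19 on chip 1 alone. With the damaged array kept it was -0.18 for A-KO:R-Het against A-KO and -0.074 for the interaction with the index. The median slope was -0.0018 without the 3 arrays highest in the index, -0.015 on chip 1 alone, 0.070 with an index of the 19 other muscle genes, and between 0.014 and 0.059 with single arrays left out. The difference in the muscle index ran from -0.83 to 0.52 for A-KO:R-Het against A-KO and from -0.45 to 1.19 for A-KO:R-Het against R-Het with single arrays left out.

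Other single genes reversed as follows, none of them called. With the muscle index, A-KO:R-Het against WT gave 0.078 for Cox6a2 and 0.021 for Cox8b, and R-Het against WT gave 0.12 for Cox8b, 0.083 for Cox4i1, 0.067 for Ndufv1, 0.078 for Uqcrc1 and 0.0019 for Atp5b. With Acta1 and Ckm as 2 covariates, Cox6a2 was 0.064 in A-KO, A-KO:R-Het gave 0.098 for Cox6a2 and 0.044 for Cox8b, and R-Het gave 0.021 for Cox4i1, -0.0097 for Cox6a1, 0.031 for Ndufv1 and 0.0305 for Uqcrc1. Without the 3 arrays highest in the index, A-KO gave 0.21 for Cox6a2 and 0.0355 for Cox8b, A-KO:R-Het gave 0.12 and 0.069, and R-Het gave 0.010 for Cox4i1, 3e-04 for Cox8a, 0.10 for Ndufv1, 0.098 for Uqcrc1 and 0.011 for Atp5b. The slopes there were 0.0038 for Ndufaf7, 0.0080 for Cox6b2, -0.078 for Cox4i2, -0.012 for Cox6b1, -0.050 for Cox7a2, -0.047 for Ndufa4 and -0.073 for Atp5a1. With the damaged array kept, A-KO gave -0.48 for Ndufa7 and -0.16 for Cox6a1, A-KO:R-Het against A-KO gave 0.084 for Sdhaf1, and the slopes of Cox4i2 and Cox6b1 were -0.0015 and -0.0010. On chip 1 alone the slope was -0.0032 for Cox5a, -0.011 for Cox4i2, -0.077 for Cox6b1, -0.027 for Cox7a2l, -0.030 for Cox8a, -0.047 for Sdhb, -0.018 for Cox5b and -0.0015 for Atp5b, and on chip 2 alone it was 0.027 for Cox6b2 and -0.015 for Cox4i2.

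With single arrays left out, R-Het against WT ran from -0.14 to 0.050 for Cox4i1, from -0.011 to 0.15 for Cox6a1, from -0.17 to 0.059 for Cox7a2, from -0.071 to 0.017 for Cox8a, from -0.061 to 0.084 for Ndufv1 and from -0.089 to 0.077 for Uqcrc1. The slope ran from -0.027 to 2e-04 for Ndufaf7, from -0.035 to 0.0050 for Cox6a1, from -0.022 to 0.0055 for Cox6b2, from -0.055 to 0.029 for Cox4i2, from -0.0089 to 0.062 for Cox7a2, from -0.022 to 0.0575 for Ndufa4 and from -0.011 to 0.11 for Atp5a1. Ckmt2 and Cpt1b lost their calls on the slope on chip 1 alone, at 0.58 and 0.49. Ckmt1 in A-KO:R-Het against WT also lost its call without the 3 arrays, at -0.47, and at -0.65 with the damaged array kept or with only A-KO:R-Het and WT in the fit. The causes were not tested. Changes of the isoforms and of the subunits listed to represent each complex were recomputed only for the comparisons whose changes are printed. A fit to 2 genotypes cannot give the interaction. No paired analysis was possible because the labels give no replicate numbers.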

Other observations

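The A-KO array labelled as damaged, left out of all comparisons, stood far from the rest in these genes. The median deviation of the 83 genes was 0.57 on it, where the other 15 arrays lay between -0.29 and 0.20. Its Cox6b1 log2 intensity was 7.91, where the other A-KO arrays had 11.92, 12.21 and 12.06, and its Cox4i1 log2 intensity was 14.09, where the others lay between 12.77 and 13.05.

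Of the 89 genes, 16 had more than 1 probe. Atp5j, a peripheral stalk subunit of ATP synthase chosen here after its values were seen, had 2 probes above the array median on all 15 arrays, which gave log2 changes of -0.12 and 0.22 in A-KO against WT. Atp5j was not alone in this. In R-Het against WT the 2 probes of Ndufb6, also above the median on all 15 arrays, gave -0.13 and 0.14. Those of Ndufa5 had the same sign there, at -0.37 and -0.31.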
